A study of Homo sapiens with 18 samples.

Results

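A set of 10 canonical target genes of the transcription factor p53 was followed in PATU-8902 and PATU-8988T, 2 established lines of human pancreatic ductal adenocarcinoma. They are CDKN1A, BTG2, MDM2, TP53INP1, SESN1, GDF15, RRM2B, ZMAT3, FAS and BBC3. These 10 of the 26249 genes in the table were chosen by name, as genes commonly listed as p53 targets. DCLK1-IN-1 is a compound that inhibits the kinase DCLK1. The groups were cells given 2.5 µM of it for 24 h, cells given it for 6 h, and cells given the solvent DMSO for 24 h, in each of the 2 lines. Each of the 6 groups had 3 libraries of polyadenylated RNA, described by the submitters as biological triplicates, which makes 18 libraries. No DMSO group ended at 6 h, so at that time the inhibitor and the shorter exposure cannot be told apart. Each line is a single cell line per group, and both lines were grown in the same medium.

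p53 is held low in unstressed cells by MDM2, a ubiquitin ligase that marks it for degradation and is itself a p53 target, which closes a negative feedback loop. DNA damage and other stresses free p53, which then raises genes that stop the cell cycle, aid repair, restrain growth or start cell death. Several of these targets also respond to other regulators, such as the integrated stress response for GDF15.

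Values are FPKM as deposited, fragments scaled to transcript length. The submitters' record describes normalisation to spike-in controls, which were added to RNA adjusted for cell count. The kept genes are the 11477 whose mean reached 1 FPKM, and library medians over them ran from 6.12 to 17.4 FPKM. The spike-in controls were level (mean log2 deviation of each library -0.06 to 0.05). Normalisation to them would itself bring this about, so it is no check of the libraries. The read depth of each library is unknown. One library stood apart: PATU-8988T DMSO replicate 1 had a median of 6.12 FPKM, against 12.1 FPKM in replicate 2 and 10.2 FPKM in replicate 3. For this reason the main comparisons are given as deposited and after scaling every library to a common median, and those with PATU-8988T DMSO also without that library. Such scaling also removes any difference in RNA per cell that spike-in normalisation would keep. The source of the differences in median was not tested. Tests are limma's on the log2(FPKM + 1) scale, where fold changes of low genes are understated, with Benjamini-Hochberg adjustment over all kept genes. The threshold for a gene to pass was an adjusted p of 0.05. KRT8 and KRT18, keratins of simple epithelium, were present in all 6 groups, with lowest values of 168 and 201 FPKM. KRT19, KRT7 and the adhesion gene CDH1 were high in PATU-8902 and lay at 0.0689 to 0.228 FPKM in PATU-8988T. The leukocyte gene PTPRC lay between 0.0788 and 0.234 FPKM, near the floor of each library. The floor is taken as a library's most frequent value (0.0795 to 0.118 FPKM), and some values lie below it. Of 13 markers of leukocytes, fibroblasts, endothelium and acinar cells, 12 stayed at or below 1.14 FPKM in every library, and CD68 ran from 3.55 to 17.3 FPKM.

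The 10 targets covered a wide range of levels, and on this per-length scale their order differed between the lines. In DMSO, PATU-8902 had MDM2 at 32.8 ± 2.3, FAS at 24.3 ± 1.7 and RRM2B at 15.6 ± 1.3 FPKM (SD, n = 3), and every other target at or below 3.32 FPKM. In PATU-8988T, MDM2 was at 35.9 ± 7.1, RRM2B at 19.8 ± 2.5 and CDKN1A at 9.77 ± 3.63 FPKM (SD, n = 3). SESN1, ZMAT3 and FAS followed in that line at 5.84 ± 1.75, 5.76 ± 0.47 and 5.43 ± 0.46 FPKM (SD, n = 3), which were within their spread of each other. Both lines thus had the feedback ligase MDM2 as the highest of the 10. Means over the 18 libraries were below 1 FPKM for BTG2 (0.612) and BBC3 (0.876), so 8 of the 10 targets were kept, and values of these 2 come from the fit with no filter on low values. In PATU-8902, BTG2 lay between 0.116 and 0.262 FPKM, close to the floor. GDF15 was also low in PATU-8988T, at 0.181 to 0.577 FPKM.

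For 8 of the 10 targets RefSeq windows of 250 bases before a transcript start were read on GRCh38.p14, since p53 acts on these genes through sites in the DNA. The windows were searched on both strands for the p53 full-site consensus, 20 letters made of a pair of half-sites without a spacer, with up to 3 letters off. Of all 35116 windows 0.914% held such a match, and it was present in 4 of the 16 windows of the 8 targets, which belong to MDM2, SESN1 and FAS. The 2 MDM2 windows overlap and share their match, so 1 is shown. The windows follow 5′ to 3′ on the gene's strand, in lower case with the match in capitals.
MDM2, chr12:68808767-68809016, plus strand: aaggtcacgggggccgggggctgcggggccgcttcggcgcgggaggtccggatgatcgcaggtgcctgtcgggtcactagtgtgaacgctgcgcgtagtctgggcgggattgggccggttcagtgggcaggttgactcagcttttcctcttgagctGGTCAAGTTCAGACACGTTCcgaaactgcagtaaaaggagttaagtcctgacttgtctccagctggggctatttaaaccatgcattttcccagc
SESN1, chr6:109008989-109009238, minus strand: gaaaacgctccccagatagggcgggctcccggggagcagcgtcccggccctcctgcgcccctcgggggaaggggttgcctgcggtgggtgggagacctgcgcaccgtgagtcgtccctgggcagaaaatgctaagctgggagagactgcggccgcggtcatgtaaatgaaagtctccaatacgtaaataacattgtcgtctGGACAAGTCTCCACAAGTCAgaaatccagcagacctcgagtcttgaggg
FAS, chr10:88991181-88991430, plus strand: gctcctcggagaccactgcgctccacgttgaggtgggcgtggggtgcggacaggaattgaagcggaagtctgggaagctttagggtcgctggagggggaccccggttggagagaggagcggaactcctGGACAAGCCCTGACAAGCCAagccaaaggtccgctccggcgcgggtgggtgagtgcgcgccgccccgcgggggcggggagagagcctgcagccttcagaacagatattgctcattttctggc
The match starts 94 bases before the start in MDM2 (2 letters off), 49 bases before it in SESN1 (3 letters off) and 122 bases before it in FAS (2 letters off). In all 3 genes the window belongs to an internal start, and longer annotated transcripts of the gene span it. The FAS and SESN1 windows hold no exonic base of the gene, and the MDM2 window holds 15. A match is a description of letters and not a site, and no binding was measured here.

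The clearest difference among these genes was between the lines in DMSO, not between treatments. CDKN1A encodes p21, the inhibitor of cyclin-dependent kinases through which p53 stops the cell cycle. Its values were 1.46, 0.761 and 1.18 FPKM in PATU-8902 DMSO libraries, against 5.98, 13.2 and 10.1 FPKM in PATU-8988T DMSO libraries. The groups did not overlap, and CDKN1A was lower in PATU-8902 (log2 fold change -2.29 ± 0.21 SE, limma adjusted p = 2.36e-08). BTG2, an antiproliferative factor, had 0.116, 0.126 and 0.166 FPKM in PATU-8902 against 0.778, 0.973 and 0.969 FPKM in PATU-8988T. It was also lower in PATU-8902 on the fit with no filter (log2 fold change -0.75 ± 0.11 SE, limma adjusted p = 8.08e-05).

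Among the stress and growth targets, TP53INP1, a stress-induced nuclear protein, had 0.187, 0.194 and 0.190 FPKM in PATU-8902 and 1.43, 1.47 and 1.41 FPKM in PATU-8988T. TP53INP1 was lower in PATU-8902 (log2 fold change -1.03 ± 0.13 SE, limma adjusted p = 2.03e-06). ZMAT3, a zinc finger protein that binds RNA, had 1.81, 2.21 and 1.81 FPKM in PATU-8902 and 5.25, 6.19 and 5.85 FPKM in PATU-8988T. ZMAT3 was lower in PATU-8902 (log2 fold change -1.20 ± 0.16 SE, limma adjusted p = 2.89e-06). SESN1 encodes a sestrin, which restrains mTORC1 signalling, and had 3.09, 3.32 and 3.15 FPKM in PATU-8902 against 5.98, 7.52 and 4.02 FPKM in PATU-8988T. The SESN1 groups did not overlap either, and it was lower in PATU-8902 (log2 fold change -0.68 ± 0.18 SE, limma adjusted p = 0.00438). GDF15, a secreted stress cytokine, went the other way with 2.37, 2.39 and 2.58 FPKM in PATU-8902 against 0.181, 0.357 and 0.577 FPKM in PATU-8988T. GDF15 was higher in PATU-8902 (log2 fold change 1.34 ± 0.19 SE, limma adjusted p = 8.19e-06).

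The death genes split. FAS, the receptor that starts extrinsic apoptosis, had 26.3, 23.3 and 23.3 FPKM in PATU-8902 and 4.93, 5.82 and 5.55 FPKM in PATU-8988T, with no overlap. FAS was higher in PATU-8902 (log2 fold change 1.98 ± 0.19 SE, limma adjusted p = 5.03e-08). BBC3 encodes PUMA, a BH3-only protein of the mitochondrial pathway, and had 0.386, 0.439 and 0.604 FPKM in PATU-8902 against 1.22, 2.11 and 1.53 FPKM in PATU-8988T. BBC3 was lower in PATU-8902 on the fit with no filter (log2 fold change -0.82 ± 0.14 SE, limma adjusted p = 0.000251).

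MDM2 and RRM2B, the small subunit of ribonucleotide reductase that p53 induces, depended on the scaling. MDM2 had 34.6, 33.5 and 30.3 FPKM in PATU-8902 and 27.7, 39.7 and 40.3 FPKM in PATU-8988T, groups that overlap. Its log2 fold change was -0.11 ± 0.23 SE as deposited (limma adjusted p = 0.710) and -0.64 ± 0.10 SE after median scaling (limma adjusted p = 3.07e-05). RRM2B had 16.5, 14.2 and 16.1 FPKM in PATU-8902, all below 22.3, 19.9 and 17.3 FPKM in PATU-8988T. Its log2 fold change was -0.32 ± 0.21 SE as deposited (limma adjusted p = 0.209) and -0.84 ± 0.12 SE after scaling (limma adjusted p = 1.32e-05).

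Of the 8 kept targets, 2 were higher in PATU-8902, 4 were lower and 2 did not pass as deposited, where 41.8% of all kept genes were higher and 12.4% lower. BTG2 and BBC3 were both lower on the fit with no filter, as were 8.15% of its 26249 genes. After scaling 2 were higher and 6 lower, against 36.3% higher and 38% lower among all kept genes. As deposited, the libraries of the 2 lines did not overlap for 5 kept targets that lay below (10.8% of kept genes) and 2 that lay above (46.5%). The targets' median log2 fold change was -0.50 as deposited and -0.98 after scaling, beside 0.45 and -0.03 over all kept genes. Scaling thus moved the median gene by over 0.1 here, and FAS, GDF15, CDKN1A, TP53INP1, SESN1, ZMAT3, BTG2 and BBC3 kept their direction and their call under it. The same 8 also passed in the same direction without PATU-8988T DMSO replicate 1, as deposited and after median-centring, where 51.6% and 75.5% of kept genes passed. CDKN1A was then at -2.57 as deposited and FAS at 1.92.

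**Figure D1:**
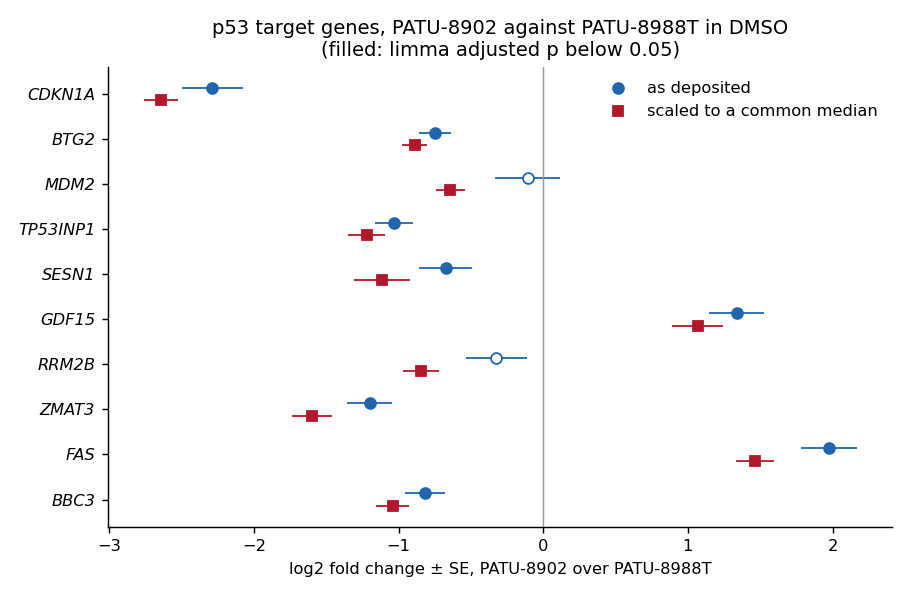
Log2 fold change (± SE) of the 10 p53 targets in PATU-8902 over PATU-8988T, DMSO, on the log2(FPKM + 1) scale, as deposited (circles) and after median scaling (squares), 3 libraries per line; filled symbols passed at a limma adjusted p below 0.05. CDKN1A lies farthest below 0 and FAS farthest above it, and MDM2 and RRM2B are filled only after scaling.

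The next question was whether DCLK1-IN-1 moves these genes. No target passed the test against DMSO in either line at either time, as deposited or after scaling. As deposited 0.113% of kept genes passed in PATU-8902 at 24 h, 0.00871% at 6 h, and 0% in PATU-8988T at both times, where 687 genes at 24 h and 287 at 6 h had an unadjusted p below 0.05. After scaling these shares were 0.523% and 0.157% in PATU-8902, and 0% and 0.113% in PATU-8988T at 24 h and 6 h. On the fit with no filter, used for BTG2 and BBC3, the deposited values gave 0.0952% and 0.0267% in PATU-8902 and 0.0114% and 0.00762% in PATU-8988T. The targets are therefore described by their values.

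**Figure D2:**
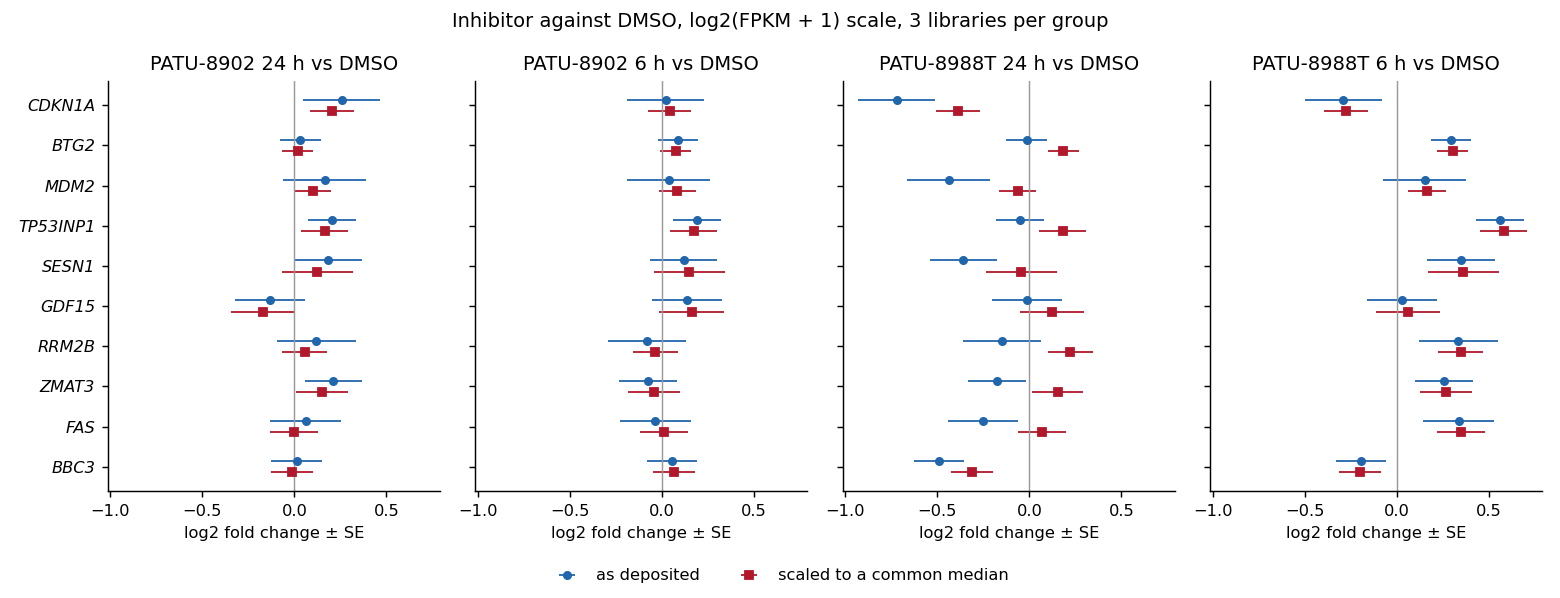
Log2 fold change (± SE) of the 10 p53 targets with DCLK1-IN-1 over DMSO on the log2(FPKM + 1) scale, as deposited (circles) and after median scaling (squares), with 3 libraries per group. No target passed in any panel; TP53INP1 lies farthest above 0 in PATU-8988T at 6 h, and CDKN1A farthest below 0 in PATU-8988T at 24 h.

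In PATU-8988T at 6 h the targets split by gene. TP53INP1 had 2.31, 2.22 and 3.32 FPKM at 6 h against 1.43, 1.47 and 1.41 FPKM in DMSO. All 3 inhibitor libraries lay above all 3 DMSO libraries, as deposited and relative to the library median. The log2 fold change of TP53INP1 was 0.56 ± 0.13 SE as deposited (limma adjusted p = 1.00) and 0.58 ± 0.13 SE after scaling (limma adjusted p = 0.0719). FAS had 6.10, 7.15 and 8.18 FPKM at 6 h against 4.93, 5.82 and 5.55 FPKM in DMSO, without overlap. Its log2 fold change was 0.34 ± 0.19 SE as deposited and 0.35 ± 0.13 SE after scaling (limma adjusted p = 0.0942). As deposited 2 of the 8 kept targets, TP53INP1 and FAS, thus lay above DMSO in every library, as did 1.98% of all kept genes.

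RRM2B had 21.4, 24.0 and 31.0 FPKM at 6 h against 17.3, 22.3 and 19.9 FPKM in DMSO, and the groups overlapped. Its log2 fold change after scaling was 0.35 ± 0.12 SE (limma adjusted p = 0.0854). The other scaled log2 fold changes in PATU-8988T at 6 h were 0.36 for SESN1, 0.30 for BTG2, 0.27 for ZMAT3, 0.16 for MDM2 and 0.06 for GDF15. CDKN1A and BBC3 went below 0 instead. CDKN1A had 6.55, 7.11 and 8.84 FPKM at 6 h against 5.98, 13.2 and 10.1 FPKM in DMSO, a scaled log2 fold change of -0.28 ± 0.12 SE (limma adjusted p = 0.120). BBC3 had 0.957, 1.22 and 1.68 FPKM at 6 h against 1.22, 2.11 and 1.53 FPKM in DMSO, a scaled log2 fold change of -0.20 ± 0.11 SE (limma adjusted p = 0.429). Relative to the library median, CDKN1A and BBC3 were lower in all 3 inhibitor libraries, as were 12.2% of kept genes and 5.96% of all 26249 genes. Over the 8 kept targets 7 log2 fold changes were above 0, with a median of 0.29 as deposited and 0.31 after scaling, beside -0.04 and -0.03 over all kept genes. Of all kept genes 43.5% were above 0 as deposited and 45.6% after scaling.

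After scaling, the calls at 6 h turned on PATU-8988T DMSO replicate 1. Relative to its library median, TP53INP1 was 0.233 there and 0.122 and 0.138 in DMSO replicates 2 and 3. FAS was 0.805 there and 0.483 and 0.542 in the other 2, and SESN1 was 0.977 there and 0.624 and 0.393 in the other 2. On this relative scale all 3 genes had their highest DMSO value in this library. As deposited, none of the 3 was highest in this library. Without it and after scaling, TP53INP1 was higher at 6 h (log2 fold change 0.76 ± 0.10 SE, limma adjusted p = 0.000242), and so were SESN1 (0.65), FAS (0.54), RRM2B (0.53), ZMAT3 (0.46), BTG2 (0.40) and MDM2 (0.27). Under the same choice 47.2% of all kept genes passed, 20.7% of them higher and 26.6% lower as shares of the kept genes, and 8.12% of all 26249 genes were higher on the fit with no filter that BTG2 comes from. After median-centring in place of scaling, 6 of these 7 passed and BTG2 did not (limma adjusted p = 0.0958). On that scale 42.6% of all kept genes passed, 18.8% higher and 23.7% lower as shares of the kept genes. As deposited and without that library no target passed, with limma adjusted p-values from 0.122 to 0.973, and 0.0261% of kept genes did. CDKN1A did not pass on either scale without it (log2 fold change after scaling -0.30, limma adjusted p = 0.0757).

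**Figure D3:**
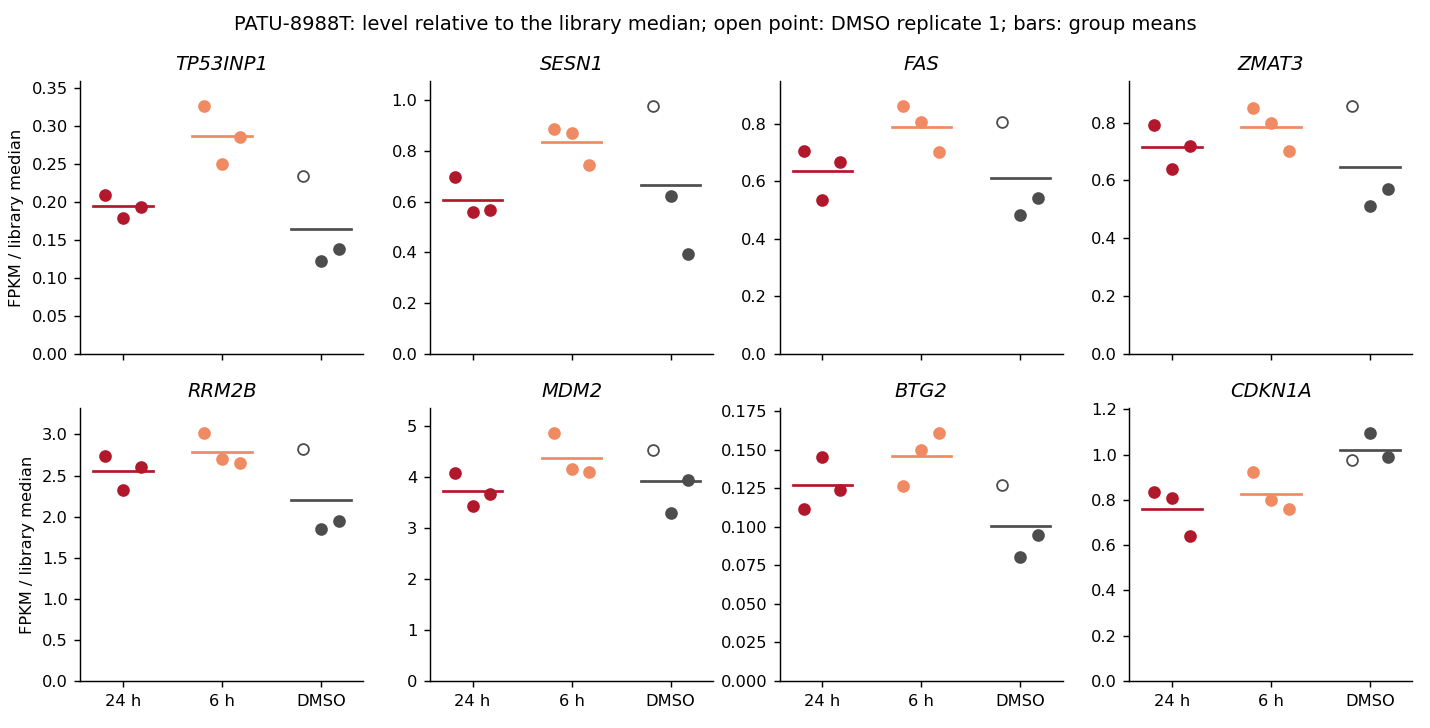
FPKM divided by the library median, for 8 p53 targets in the 9 PATU-8988T libraries (points) with group means (bars); the open point is DMSO replicate 1. For TP53INP1, SESN1, FAS, ZMAT3, RRM2B, MDM2 and BTG2 the open point is the highest of the 3 DMSO points, and for CDKN1A all 6 inhibitor points lie below all 3 DMSO points.

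At 24 h in PATU-8988T, CDKN1A had 5.26, 5.42 and 5.13 FPKM, against 5.98, 13.2 and 10.1 FPKM in DMSO. Every inhibitor library lay below every DMSO library, as for 1.22% of kept genes. The log2 fold change of CDKN1A was -0.72 ± 0.21 SE as deposited (limma adjusted p = 0.334) and -0.39 ± 0.12 SE after scaling (limma adjusted p = 0.280), again without overlap (4.73% of kept genes). BBC3 had 0.982, 0.689 and 0.874 FPKM at 24 h against 1.22, 2.11 and 1.53 FPKM in DMSO, with no overlap as deposited (3.34% of all 26249 genes). Its log2 fold change was -0.49 ± 0.14 SE as deposited and -0.31 ± 0.11 SE after scaling (limma adjusted p = 0.249 and 0.535, fit with no filter). The median of all kept genes was at -0.35 in this comparison as deposited and at -0.02 after scaling. In bulk RNA, fewer cells of a kind that express a gene and less of its RNA per cell cannot be told apart.

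The other 8 targets overlapped their DMSO libraries at 24 h in PATU-8988T. MDM2 had 25.7, 23.0 and 29.4 FPKM at 24 h against 27.7, 39.7 and 40.3 FPKM in DMSO, a log2 fold change of -0.44 ± 0.23 SE as deposited and -0.06 ± 0.10 SE after scaling. TP53INP1, GDF15, BTG2, FAS, ZMAT3 and RRM2B were between -0.25 and -0.01 as deposited and between 0.07 and 0.22 after scaling, a turn of direction in each. SESN1 was at -0.36 and -0.04. All 8 kept targets were below 0 as deposited, where only 4.91% of all kept genes were above 0. The targets' median was -0.21, beside -0.35 over all kept genes.

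Without PATU-8988T DMSO replicate 1, CDKN1A was lower at 24 h as deposited and after scaling (log2 fold change -1.0 ± 0.17 SE as deposited, limma adjusted p = 0.0118; -0.41 ± 0.13 SE after scaling, limma adjusted p = 0.0280). As deposited MDM2 (-0.61) and BBC3 (-0.61) passed as well. After scaling, RRM2B (0.41), TP53INP1 (0.36), ZMAT3 (0.35) and BTG2 (0.28) passed in the other direction. Under this choice 56.8% of all kept genes passed as deposited, 56.7% of them lower as a share of the kept genes, and 36.1% passed after scaling, 16.1% higher and 20% lower. On the fit with no filter, from which BBC3 and BTG2 come, 19.2% of genes were lower as deposited and 6.06% higher after scaling. After median-centring CDKN1A did not pass (-0.40, limma adjusted p = 0.0723), nor did TP53INP1 (limma adjusted p = 0.0506) or ZMAT3 (limma adjusted p = 0.0511). BTG2 (0.54), RRM2B (0.37) and FAS (0.30) passed on that scale, where 40.8% of kept genes passed and 58.6% of genes were higher on the fit with no filter.

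Between the inhibitor times in PATU-8988T, which do not use the DMSO libraries, all 8 kept targets had lower means at 24 h as deposited. Of all kept genes only 2.59% had a log2 fold change above 0 there. SESN1 had 4.38, 3.74 and 4.55 FPKM at 24 h against 6.28, 7.72 and 8.69 FPKM at 6 h, a log2 fold change of -0.71 ± 0.18 SE. TP53INP1 had 1.31, 1.20 and 1.55 FPKM at 24 h against 2.31, 2.22 and 3.32 FPKM at 6 h, a log2 fold change of -0.61 ± 0.13 SE. MDM2 was at -0.59, FAS at -0.59, RRM2B at -0.48, CDKN1A at -0.43 and ZMAT3 at -0.43. These 7 targets did not overlap between the times, as for 9.09% of kept genes. None passed (limma adjusted p = 0.442 for each), and neither did any other kept gene, with 665 at an unadjusted p below 0.05. GDF15, BTG2 and BBC3 overlapped, at -0.04, -0.31 and -0.30. The targets' median was -0.53, beside -0.32 over all kept genes. After scaling it was -0.18, beside -0.000974 over all kept genes, and only TP53INP1 (-0.40), SESN1 (-0.40) and MDM2 (-0.23) were still lower in every 24 h library (9.91% of kept genes).

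In PATU-8902 most targets overlapped between inhibitor and DMSO libraries. TP53INP1 did not, with 0.450, 0.394 and 0.279 FPKM at 24 h, 0.379, 0.393 and 0.310 FPKM at 6 h and 0.187, 0.194 and 0.190 FPKM in DMSO. Every inhibitor library lay above every DMSO library at both times, at levels below 0.5 FPKM. Its log2 fold change was 0.21 ± 0.13 SE at 24 h and 0.19 ± 0.13 SE at 6 h as deposited, and 0.16 and 0.17 after scaling (limma adjusted p at least 0.651). The 2 comparisons share their DMSO libraries. SESN1 had 3.62, 3.44 and 4.26 FPKM at 24 h against 3.09, 3.32 and 3.15 FPKM in DMSO, above it in every library as deposited but not after scaling. Thus 2 of 8 kept targets were above DMSO in every library at 24 h and 1 of 8 at 6 h, against 5.84% and 1.15% of kept genes.

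CDKN1A in PATU-8902 had 1.42, 1.68 and 1.5 FPKM at 24 h, 0.888, 1.33 and 1.25 FPKM at 6 h and 1.46, 0.761 and 1.18 FPKM in DMSO. Its 24 h and DMSO libraries overlapped (log2 fold change 0.26 ± 0.21 SE as deposited and 0.20 ± 0.12 SE after scaling), and its 24 h libraries lay above its 6 h libraries (0.24 ± 0.21 SE as deposited, and 0.16 ± 0.12 SE with overlap after scaling). ZMAT3 had 2.03, 2.42 and 2.82 FPKM at 24 h against 1.58, 2.03 and 1.79 FPKM at 6 h, 0.29 ± 0.16 SE as deposited and 0.19 ± 0.14 SE after scaling. CDKN1A and ZMAT3 were the 2 kept targets above 6 h in every 24 h library as deposited, as were 3.37% of kept genes, and neither passed (limma adjusted p = 1.00). MDM2, GDF15, BTG2, BBC3, FAS and RRM2B overlapped between all 3 PATU-8902 groups, and their log2 fold changes against DMSO lay between -0.13 and 0.17 as deposited. The targets' median against DMSO was 0.18 at 24 h and 0.03 at 6 h, beside 0.04 and -0.05 over all kept genes.

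The difference between the lines was tested directly as an interaction. CDKN1A had the largest value of the targets at 24 h, where its inhibitor effect was 0.98 ± 0.30 SE higher in PATU-8902 than in PATU-8988T on the log2 scale as deposited (unadjusted p = 0.00391, limma adjusted p = 0.547). After scaling the difference was 0.59 ± 0.17 SE (limma adjusted p = 0.479). At 6 h the differences as deposited were -0.37 for TP53INP1, -0.37 for FAS and -0.42 for RRM2B (limma adjusted p = 1.00 for each). No target passed at either time. Of all kept genes 0.00871% passed at 24 h and 0% at 6 h as deposited (0.279% and 0.0174% after scaling), with 99 genes at an unadjusted p below 0.05 at 6 h as deposited. Without PATU-8988T DMSO replicate 1 the 24 h difference of CDKN1A was 1.26 as deposited and passed (limma adjusted p = 0.0423), and was 0.60 after median-centring without passing (limma adjusted p = 0.115). Under that choice 0.122% and 5.54% of kept genes passed.

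A group of 6 targets varied together across PATU-8988T libraries. Over the 9 libraries of that line, after median-centring, Pearson's r between MDM2, TP53INP1, SESN1, FAS, ZMAT3 and RRM2B ran from 0.60 to 0.97 over the 15 pairs, with a median of 0.80, and the median r of the 6 genes with all kept genes was 0.01. Without DMSO replicate 1 the median over the pairs was 0.78. CDKN1A did not share this pattern: its r with the 6 lay between -0.48 and 0.05. In PATU-8902 the median over the pairs was 0.51, and 0.25 without DMSO replicate 1, with CDKN1A between 0.04 and 0.68. These values describe 9 libraries that share 3 treatments and a scaling, and the 6 genes were picked after their values were seen. Median-centring also moves low genes such as TP53INP1, and r on the other scales is not given here.

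Likeness over all 18 libraries, with each line's mean removed, was computed for CDKN1A and MDM2 among 11280 kept genes. The genes most like CDKN1A were MAPRE3 (r = 0.776), DGAT2 (0.763), SLC38A7 (0.758), TSPYL2 (0.754) and GADD45A (0.753), the last of which is itself a p53 target. Those most like MDM2 were MED7 (0.869), DNAJC3 (0.863), SIKE1 (0.846), FAN1 (0.790) and BAG4 (0.785). None of the other 9 targets was among either 5.

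A wider list of 37 other p53 targets, 33 of them kept, was read beside the 10. None of the 33 passed against DMSO in either line at either time, as deposited or after scaling. Their median log2 fold change lay within 0.05 of that of all kept genes in each of the 4 comparisons on both scales. The largest values, all short of the threshold, are given as deposited. In PATU-8902 at 24 h they were BAX (-0.36), PPM1D (0.29), NINJ1 (-0.26) and SERPINB5 (0.26). In PATU-8988T at 24 h they were AEN (-0.70), TP53I3 (-0.70), DDB2 (-0.69) and NINJ1 (-0.64). The median of all kept genes in that comparison was itself -0.35 as deposited, and -0.02 after scaling. At 6 h they were CDIP1 (0.19), PLK2 (-0.18), SUSD6 (0.18) and FBXO22 (-0.18) in PATU-8902, and CCNG1 (0.60), NINJ1 (-0.51), AEN (-0.40) and PMAIP1 (0.40) in PATU-8988T. CCNG1, cyclin G1, thus had a log2 fold change (0.60) near that of TP53INP1 (0.56 as deposited) at 6 h in PATU-8988T. Their levels were far apart, with means over the 18 libraries of 128 and 1.055 FPKM. The log2(FPKM + 1) scale understates the change of the low gene TP53INP1 more.

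Between 24 h and 6 h in PATU-8902, NINJ1, a mediator of plasma membrane rupture, was the 1 list member to pass, after median-centring (log2 fold change -0.50 ± 0.10 SE, limma adjusted p = 0.0468), where 0.244% of kept genes passed. After median scaling it had -0.47 (limma adjusted p = 0.0746). SPATA18, a low gene outside the kept set, was higher in PATU-8988T at 6 h than in DMSO as deposited on the fit with no filter (log2 fold change 0.35 ± 0.04 SE, limma adjusted p = 0.00697). It was lower at 24 h than at 6 h on the same fit (-0.29 ± 0.04 SE, limma adjusted p = 0.00977), where 0.0495% of genes passed. On that fit 0.00762% of genes passed at 6 h against DMSO. SPATA18 ran from 0.104 to 1.01 FPKM, and 9 of the 18 libraries lay close to the floor. Its SE draws on the spread within all 6 groups, these libraries included, so it may be understated. SPATA18 takes part in mitochondrial quality control.

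Between the lines in DMSO, 13 of the 33 were higher in PATU-8902 as deposited: SERPINB5, TIGAR, CMBL, FUCA1, PERP, PTP4A1, PMAIP1, PLK3, TRIAP1, DRAM1, PHLDA3, FBXO22 and APAF1. SERPINB5, the serpin maspin, had the largest value at 4.57, and TIGAR, which directs glucose toward the pentose phosphate route, was at 2.62. Another 6 were lower: CDIP1 (-2.16), SLC12A4 (-1.65), CYFIP2 (-1.52), GADD45A (-1.45), RPS27L and SESN2. Of all kept genes 41.8% were higher and 12.4% lower as deposited. After median-centring 11 were higher, the 13 less PHLDA3 and APAF1, and 16 were lower, the 6 plus DDB2, SUSD6, NINJ1, POLH, TNFRSF10B, PLK2, XPC, FDXR, BLOC1S2 and AEN, against 34.4% higher and 37.8% lower among all kept genes. The list's shares higher in PATU-8902 thus lay near those of all kept genes, and its shares lower lay above them, a difference that was not tested.

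MDM4, which binds and restrains p53, was at 2.62 ± 0.35 FPKM in PATU-8902 DMSO and 4.76 ± 2.59 FPKM in PATU-8988T DMSO (SD, n = 3), and passed as lower in PATU-8902 only after centring (-1.07) or scaling (-0.97). Of 11 regulators and relatives of p53, 10 were kept and none passed against DMSO. Between the lines 7 were higher in PATU-8902 on each scale: EP300 (2.76), USP7 (1.75), CHEK1 (1.55), ATR (1.27), ATM (1.21), CHEK2 (1.12) and TP53BP1 (0.93), given as deposited. Of all kept genes 41.8% were higher as deposited, 34.4% after centring and 36.3% after scaling. Beside MDM4, TP73 was lower after centring (-0.54) and scaling (-0.41). CDKN2A, whose product ARF blocks MDM2, had -0.75 at 24 h and -0.51 at 6 h in PATU-8988T without passing. The medians of all kept genes there were -0.35 at 24 h and -0.04 at 6 h as deposited.

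Neither the genes downstream of p21 nor those of the integrated stress response passed against DMSO. All 15 cell-cycle genes that p21 lowers through DREAM and RB were kept, and their largest values were CDC20 (-0.27) and E2F1 (-0.18) in PATU-8902 at 24 h and PLK1 (-0.68), CDC20 (-0.68), FOXM1 (-0.63) and AURKB (-0.61) in PATU-8988T at 24 h. In PATU-8988T their median at 24 h was -0.49 as deposited and -0.11 after scaling, beside -0.35 and -0.02 over all kept genes. Between the lines, FOXM1 (3.02), TOP2A (1.25), CCNB2 (1.22), BIRC5 (1.06) and CCNA2 (0.64) were higher in PATU-8902 as deposited, 5 of 15 beside 41.8% of all kept genes. Of these CCNA2 did not pass after centring or scaling, and AURKA, CDK1, AURKB and BUB1 were lower in PATU-8902 on those scales. These 4 of 15 stood beside 37.8% of all kept genes lower after centring and 38% after scaling. Of 10 stress response genes 9 were kept. DDIT4, a brake on mTORC1, was higher in PATU-8902 (5.39), and PSAT1 (-7.40), ATF3 (-1.91) and ASNS (-1.74) were lower, while GDF15, which this response can also raise, was higher there. After centring and scaling DDIT3, VLDLR and CEBPB were lower as well. Thus 1 of 9 was higher and 3 lower as deposited, beside 41.8% and 12.4% of all kept genes. After centring and scaling 6 of 9 were lower, beside 37.8% and 38% of all kept genes. In PATU-8988T at 24 h the largest values were ATF3 (-0.75), ATF4 (-0.73), TRIB3 (-0.65) and CEBPB (-0.61), none of which passed. The median of the 9 stress response genes there was -0.52 as deposited and -0.14 after scaling.

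Reads on the opposite strand could enter some of these values, since the sources used here do not give the strand setting of the counting. In GENCODE v29 the exons of CDKN1A share 32 bases with those of a gene on the other strand, DINOL, and those of MDM2 share 785 and those of SESN1 share 243 with unnamed antisense genes. The parts of these partners cannot be told apart in the table.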

How the data were processed

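Polyadenylated RNA of 18 libraries was read single-end after an ERCC spike-in mix went into RNA adjusted for cell count, per the labels' protocols. The authors deposited these as 1 table of FPKM values, 26249 genes and 92 spike-in controls by library. HISAT, Cufflinks, Cuffnorm and hg19 are named in the submitters' processing notes (the sources used here give no versions). The record also describes normalisation to the spike-in controls. Without counts the read depth of a library cannot be given, nor a counting error.

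The values were transformed to log2(FPKM + 1). A single limma fit (limma 3.58.1, R 4.3.3) with 6 group means, a mean-variance trend and 12 residual degrees of freedom covered the 11477 genes averaging 1 FPKM or more. The 2 members below that level were read from the same fit to all 26249 genes. P-values are 2-sided and Benjamini-Hochberg adjusted within each of 9 contrasts, and they measure the spread between biological triplicates.

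The members, gene lists and tests were chosen with earlier results of these data known. Named throughout are the 10 members and MDM4, and 1 other gene that the rule names is not reported here. From other lists, genes are named that passed or that were among the 4 largest, and for CDKN1A and MDM2 the 5 genes most like each.

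Alternatives changed the pseudocount (0.1), the filter (none, or 5 FPKM), the samples fitted, the replicate block, single libraries and the scaling. Median-centring shifts log2 values and so also moves genes near the floor. Median scaling multiplies FPKM before the log and was chosen after seeing the data. On data simulated for PATU-8988T at 24 h with 11477 genes, 54 of 100 genes changed by 1 on the log2 scale were recovered, as were 100 of 100 changed by 2, with 7 false calls. The real comparison gave 0 genes as deposited and 6514 without PATU-8988T DMSO replicate 1. The simulated shares may therefore not carry over to it. Promoter windows came from RefSeq on GRCh38.p14 and exon overlaps from GENCODE v29. Neither was combined with hg19 positions.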

Additional observations from a re-analysis of the deposited data

How the results depend on the processing

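The precision of every value rests on 3 libraries per group, and FPKM give no depth. Of the differences between the lines in DMSO, those of CDKN1A, TP53INP1, SESN1, ZMAT3, BTG2, BBC3, FAS and GDF15 kept their direction under every alternative run, and the number of genes called there stayed between 5304 and 8661 without single libraries. The counts below are of all genes past an adjusted p of 0.05 in limma.

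After median-centring there were 51 in PATU-8902 at 24 h, 13 in PATU-8902 at 6 h, 9 in PATU-8988T at 6 h, 28 between 24 h and 6 h in PATU-8902 and 26 for the difference in 24 h effect between the lines. After median scaling these were 60, 18, 13, 30 and 32, with 2 for the difference in 6 h effect. With no filter there were 25 in PATU-8902 at 24 h, 7 in PATU-8902 at 6 h, 3 in PATU-8988T at 24 h, 2 in PATU-8988T at 6 h, 11 and 13 between 24 h and 6 h in PATU-8902 and in PATU-8988T, and 2 for the difference in 24 h effect. A filter of 5 FPKM gave 1 in PATU-8988T at 6 h and 0 for the difference in 24 h effect, as did a pseudocount of 0.1 for that difference (0). Fitting the compared groups alone gave 3 in PATU-8902 at 24 h, 0 in PATU-8902 at 6 h, 4 in PATU-8988T at 24 h, 5 in PATU-8988T at 6 h, 29 between 24 h and 6 h in PATU-8988T and 1 for the difference in 6 h effect. The cause of these moves was not tested.

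Leaving out single libraries, with and without median-centring, gave 6 to 46 genes in PATU-8902 at 24 h, 0 to 15 in PATU-8902 at 6 h, 0 to 6514 in PATU-8988T at 24 h and 0 to 4884 in PATU-8988T at 6 h. Between 24 h and 6 h it gave 0 to 23 in PATU-8902 and 0 to 1 in PATU-8988T, and for the differences in effect 0 to 636 at 24 h and 0 to 2308 at 6 h. The highest values for PATU-8988T against DMSO came without its DMSO replicate 1.

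No member below passed the threshold in the fit to all libraries, and the values are log2 differences. Median-centring turned the sign in PATU-8902 at 24 h of BTG2 (-0.030), BBC3 (-0.050) and FAS (-0.0018), and at 6 h of FAS (0.0097). In PATU-8988T at 24 h it turned TP53INP1 (0.30), GDF15 (0.34), BTG2 (0.33), FAS (0.10), ZMAT3 (0.17) and RRM2B (0.20), and between 24 h and 6 h GDF15 (0.30), BTG2 (0.025) and BBC3 (0.036). Median scaling turned BBC3 (-0.011) and FAS (-0.0033) in PATU-8902 at 24 h and FAS (0.012) at 6 h. In PATU-8988T it turned TP53INP1 (0.18), GDF15 (0.12), BTG2 (0.19), FAS (0.068), ZMAT3 (0.15) and RRM2B (0.22) at 24 h, and GDF15 (0.063) between 24 h and 6 h. A pseudocount of 0.1 turned GDF15 (0.0091) in PATU-8988T at 24 h.

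Without single libraries the sign also turned, over these ranges. In PATU-8902 at 24 h they were MDM2 -0.013 to 0.28, GDF15 -0.36 to 0.10, BTG2 -0.12 to 0.11, BBC3 -0.19 to 0.10, FAS -0.065 to 0.14 and RRM2B -0.061 to 0.26. In PATU-8902 at 6 h they were CDKN1A -0.11 to 0.18, MDM2 -0.11 to 0.14, GDF15 -0.055 to 0.30, BBC3 -0.067 to 0.30, FAS -0.19 to 0.047, ZMAT3 -0.14 to 0.086 and RRM2B -0.21 to 0.030. In PATU-8988T at 24 h they were TP53INP1 -0.11 to 0.55, GDF15 -0.11 to 0.49, BTG2 -0.064 to 0.54, SESN1 -0.57 to 0.28, FAS -0.37 to 0.30, ZMAT3 -0.26 to 0.37 and RRM2B -0.26 to 0.37. At 6 h they were MDM2 -0.022 to 0.25 and GDF15 -0.16 to 0.19, and between 24 h and 6 h CDKN1A -0.51 to 0.0085, GDF15 -0.11 to 0.50, BTG2 -0.46 to 0.074 and BBC3 -0.40 to 0.11.

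The labels give replicate numbers but no shared day, so whether the samples were paired is unknown. Correlations between same-numbered libraries lay within or near the range of the others, which does not exclude pairing. Deviations from group means correlated across genes at -0.222 to 0.0905 between same-numbered libraries and -0.188 to 0.213 between others in PATU-8902, and at -0.0765 to 0.143 and -0.176 to 0.158 in PATU-8988T. With the replicate block 0 genes passed in PATU-8902 at 6 h, and 10 in PATU-8902 at 24 h. With the block after median-centring there were 42 in PATU-8902 at 24 h, 13 at 6 h, 17 between them, 5 in PATU-8988T at 6 h and 23 for the difference in 24 h effect, with the members' log2 differences as after median-centring alone.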
